A study of Caenorhabditis elegans with 2 samples.

Results

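The genes described here, unc-51, atg-13, epg-9 and epg-7, encode the Caenorhabditis elegans autophagy initiation complex. They are 4 of 19973 nuclear protein-coding genes and were taken by name, and every summit of the transcription factor HLH-30 from 5000 bp upstream of the gene start to the gene end was collected for each. The single group was late embryonic hermaphrodites of strain OP433, which carries unc-119(tm4063) III and the integrated transgene wgIs433. This transgene makes HLH-30 with a C-terminal GFP-FLAG tag. Chromatin of whole organisms was precipitated with an antibody to GFP in 2 biological replicates. There was no second genotype, stage or treatment, so the comparisons are between replicates, between summits and between these genes and all others, and no test between conditions exists. The worms are a mixture of all their tissues, so strong binding in few cells and weak binding in many cannot be told apart. No source used here names the promoter that drives the transgene, and peak lists hold no expression values against which the labelled stage could be checked.

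Autophagy encloses cytoplasm in a membrane and delivers it to the lysosome, and it starts when a kinase complex is switched on by starvation or loss of TOR signalling. UNC-51 is the Atg1/ULK1 kinase at the centre of that complex and is also known in worms for its part in axon growth. ATG-13 is the adaptor that binds the kinase, EPG-9 is the counterpart of mammalian ATG101 and binds ATG-13, and EPG-7 is a scaffold related to FIP200 that links the complex to protein cargo. HLH-30 is the worm member of the TFEB family, basic helix-loop-helix leucine zipper proteins that bind E-boxes with the core CACGTG and are known for switching on autophagy and lysosome genes when nutrients are short.

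Each of the 4 genes had a summit in the optimal list, the peaks left after thresholding by the irreproducible discovery rate (IDR), which asks whether replicates rank peaks alike. There were 7 such summits, 4 of them at epg-9 and 1 each at epg-7, unc-51 and atg-13. The bases around them are shown because they carry the words described below. All are on the + strand of ce11 (RefSeq sequence of WBcel235), with 80 bp on either side of the strongest summit and 50 bp on either side of the others, and capitals mark CACGTG and GAGAGA, as well as CGTCTC and ACGCAG, on either strand. In order of signal, the regions are chrIV:2602089-2602249, chrX:7334521-7334621, chrIV:2599768-2599868, chrV:20005877-20005977, chrIV:2603828-2603928, chrIII:8158550-8158650 and chrIV:2604970-2605070. Each line names the gene and the distance from its start.
epg-9, 1028 bp downstream: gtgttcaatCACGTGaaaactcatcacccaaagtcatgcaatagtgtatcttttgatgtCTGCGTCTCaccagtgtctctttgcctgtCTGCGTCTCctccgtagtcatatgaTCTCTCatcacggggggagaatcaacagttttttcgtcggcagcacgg
epg-7, 143 bp upstream: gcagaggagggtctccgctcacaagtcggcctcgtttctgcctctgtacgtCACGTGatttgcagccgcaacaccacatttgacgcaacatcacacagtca
epg-9, 1323 bp upstream: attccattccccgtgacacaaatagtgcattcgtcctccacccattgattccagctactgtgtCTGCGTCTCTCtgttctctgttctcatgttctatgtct
unc-51, 1442 bp upstream: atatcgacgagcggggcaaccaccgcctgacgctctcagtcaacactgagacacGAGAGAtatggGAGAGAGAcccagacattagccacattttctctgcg
epg-9, 2737 bp downstream: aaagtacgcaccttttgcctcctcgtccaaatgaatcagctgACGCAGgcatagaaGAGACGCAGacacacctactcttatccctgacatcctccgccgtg
atg-13, 410 bp upstream: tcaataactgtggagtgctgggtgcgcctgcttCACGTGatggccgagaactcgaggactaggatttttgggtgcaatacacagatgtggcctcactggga
epg-9, 3879 bp downstream: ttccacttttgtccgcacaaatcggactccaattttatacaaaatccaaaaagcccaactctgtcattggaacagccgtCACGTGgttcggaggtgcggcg

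An optimal summit was in the window of 4 of 4 initiation genes, against 15% of all 19973 protein-coding genes with the same kind of window. Longer windows hold more summits. The windows of unc-51, epg-9 and epg-7 span 13500, 11324 and 10555 bp, and among the 2235 genes with windows over 10000 and up to 15000 bp the share was 22.8%. The atg-13 window spans 7244 bp, and among the 9888 genes with windows over 6000 and up to 8000 bp the share was 12.5%. In the longer lists, of which the pooled one is labelled as holding background as well as peaks, a summit was common everywhere. All 4 genes had at least 1 summit in the pooled list, in that of replicate 1 and in that of replicate 2, where 71.4%, 57% and 82.9% of all genes had one, so presence in those lists says little about these genes. The genes were chosen with earlier results of these data known, and no test was made over them. Windows from 1000 bp before to 200 bp after any annotated start held a summit at 3 of the 4 genes, leaving out unc-51, and 4 summits in all. No share of all genes is given for these shorter windows, and the shares above do not apply to them.

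The kinase gene unc-51 (WBGene00006786, chrV:19995986-20004485, - strand) had 1 optimal summit, 1442 bp upstream of its single annotated start. The authors' peak at chrV:20005818-20006033 had a signal of 253 and rank 112 of 1959. Its signal was 76.5 at rank 155 of 11695 in replicate 1, and 179 at rank 97 of 30000 in replicate 2. The signal scale differs between lists, so values are compared within a list, and in both replicates this peak lay far above the list median, by 6.62 times in replicate 1 and 20.7 times in replicate 2. That median depends on how many weak entries a list holds. The peak is intergenic, between unc-51 and the divergently transcribed Y60A3A.23, whose starts face each other across a gap of 3284 bp. The summit was 1843 bp from the start of Y60A3A.23 and fell in the window of both genes. The other summits of the unc-51 window were weak, at ranks from 3614 to 4828 in replicate 1 and from 16416 to 26154 in replicate 2, and none of these had a summit of the other replicate within 100 bp.

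The adaptor gene atg-13 (WBGene00017045, chrIII:8155947-8158190, - strand) had the lowest signal of the 4 genes when each is taken by its strongest peak. Its single optimal summit lay 410 bp upstream of the start, in the peak chrIII:8158428-8158771, with a signal of 70.2 and rank 1036. This signal is 0.964 times the median of the optimal list, which is 72.7. In replicate 1 the signal was 31.8 at rank 755, with the summit at the same base. In replicate 2 it was 40.9 at rank 1244, with the summit 19 bp away. The peak is intergenic, in the 965 bp between atg-13 and inpp-5K, the gene upstream of it on the same strand. A coding exon of atg-13 held a further summit in replicate 1 at rank 6807, and replicate 2 had no other summit in the window. With 10000 bp upstream the strongest summit was another, of signal 112 and rank 464, 5699 bp upstream of atg-13 and 484 bp from the start of prp-8, its nearest gene.

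The gene epg-9 (WBGene00022078, chrIV:2601141-2607464, + strand) held the strongest HLH-30 peak of every list. The peak chrIV:2601987-2602371 had a signal of 1042 in the optimal list, 406 in replicate 1 and 643 in replicate 2, each at rank 1. Its summit lay in an intron, 1028 bp downstream of the start of the longest isoform, Y69A2AR.7a.1, and 1075 bp upstream of the start of Y69A2AR.7b.1. It thus stood between these annotated starts, at nearly equal distances from both. The replicates placed the summit 17 bp apart.

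Another 3 optimal summits belonged to the epg-9 window. The peak chrIV:2599673-2599946, intergenic and 1323 bp upstream of the longest isoform, had a signal of 392 at rank 42, with 119 at rank 61 in replicate 1 and 278 at rank 36 in replicate 2. The peak chrIV:2603799-2603972, in an intron 634 bp downstream of the start of Y69A2AR.7b.1 and 980 bp upstream of that of Y69A2AR.7c.1, had a signal of 162 at rank 255, with 55.1 at rank 280 in replicate 1 and 106 at rank 246 in replicate 2. The weakest of them, chrIV:2604848-2605191, had a signal of 64.9 at rank 1187, with 21.8 at rank 1471 in replicate 1 and 42.8 at rank 1162 in replicate 2. Its summit lay in a coding exon, chrIV:2604831-2605137 in the longer isoforms, and 162 bp downstream of the start of the shortest isoform, Y69A2AR.7c.1. In replicates 1 and 2 the summit was 208 and 203 bp downstream of that start. Each of the 3 annotated starts of epg-9 was thus within 1028 bp of an optimal summit. The summits 2737 and 3879 bp into epg-9 were also in the window of vamp-7, a SNARE gene downstream on the same strand, at 4173 and 3031 bp from its start. Over all genes such a cluster was rare, with 4 or more optimal summits in the windows of 24 genes, 0.12% of all. The epg-9 window is longer than most, at the 88.9 percentile, and no share is given for windows of like length.

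A further epg-9 summit fell below the optimal list. It lay 1617 bp into the gene in the pooled list, with a signal of 37.7 at rank 2860, against a lowest signal of 47.7 in the optimal list. In replicate 1 it had a signal of 24 at rank 1235, and in replicate 2 a signal of 12.6 at rank 9074. Over the median of its list the signal was 2.08 times in replicate 1 and 1.45 times in replicate 2.

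The scaffold gene epg-7 (WBGene00020334, chrX:7334714-7340268, + strand) had the optimal summit nearest to an annotated start, 143 bp upstream. The peak chrX:7334386-7334727 had a signal of 686 and rank 11 in the optimal list. Its signal was 241 at rank 6 in replicate 1 and 444 at rank 14 in replicate 2, with summits 7 bp apart. Upstream of it 2810 bp separate epg-7 from ttr-30 on the same strand, and no other protein-coding gene had this summit in its window. Replicate 1 had no other summit in the epg-7 window, and the other 4 of replicate 2 had signals from 4.58 to 8.37 and ranks from 15588 to 29761.

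**Figure D1:**
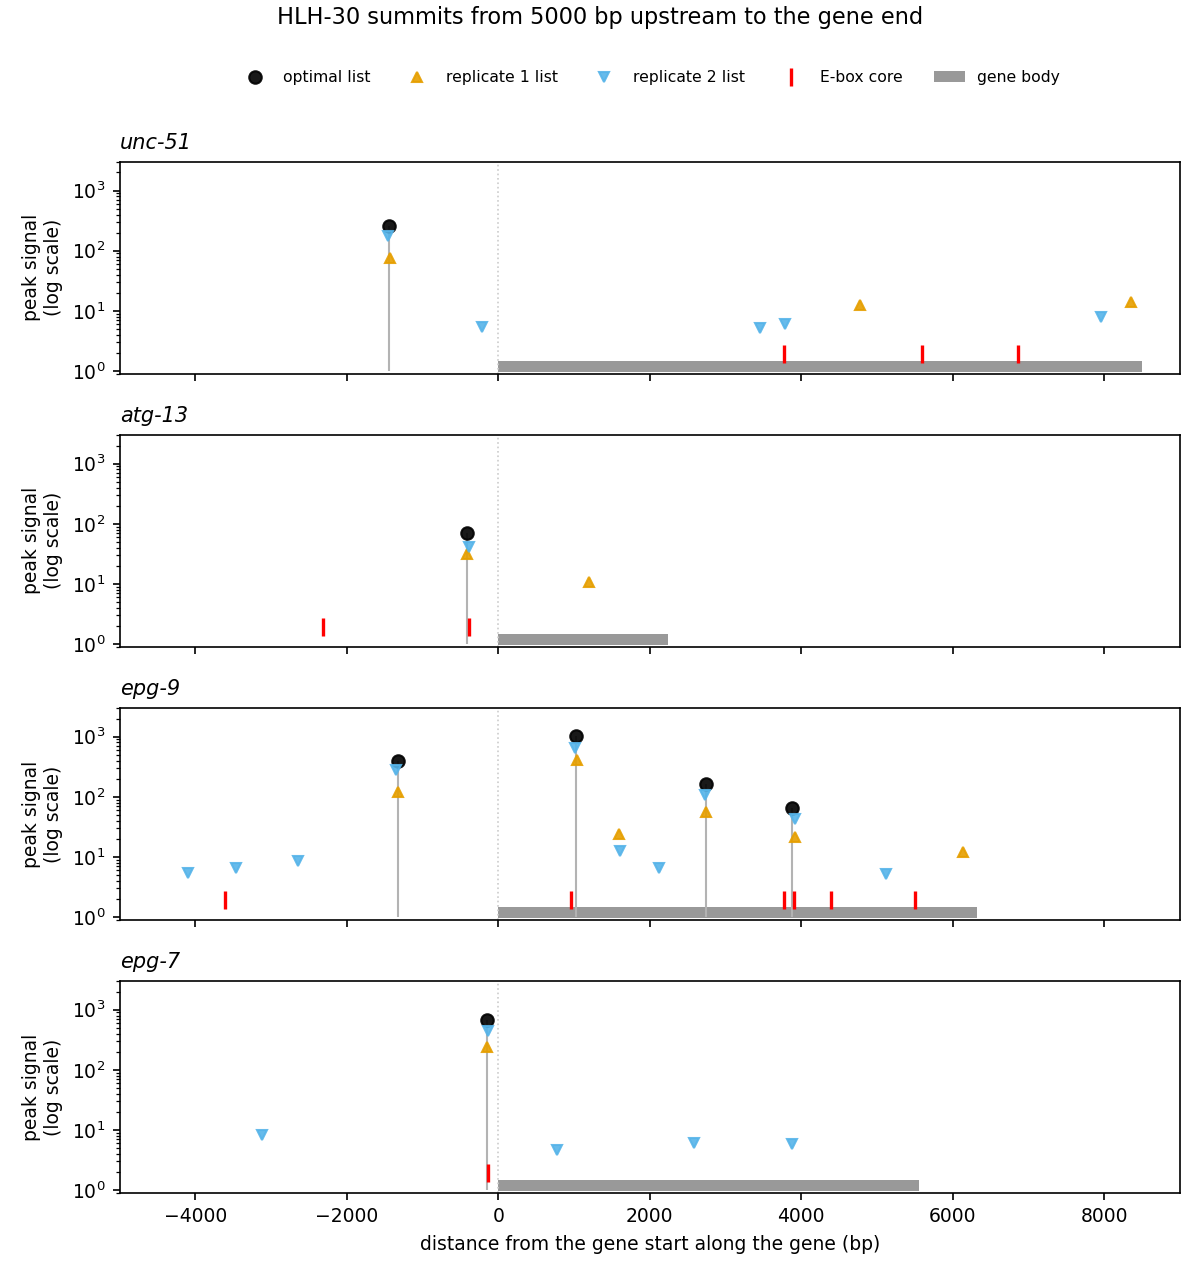
Summits in the window of each gene, with the distance from the gene start in bp (negative upstream) against the authors' peak signal on a log axis whose scale differs between lists. Circles with stems are optimal summits, triangles those of each replicate, red ticks CACGTG cores and grey bars gene bodies. The 7 optimal summits each have both triangles under them, and epg-9 alone has 4 of them.

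All 7 summits had a summit within 100 bp in both replicates, as did 95.4% of all optimal summits, and at the 7 the replicate summits were 2 to 30 bp apart. The optimal list was chosen from both replicates and equals the 1959 pooled peaks with the highest signal, so presence in both and a like order are in part fixed by that choice. By signal, the order in replicate 1 was that of the optimal list throughout. In replicate 2 the first 5 kept that order and the last pair changed places, with 42.8 for the exonic epg-9 summit and 40.9 for that of atg-13. The strongest epg-9 summit had 1.52 times the signal of the epg-7 summit in the optimal list, 1.68 times in replicate 1 and 1.45 times in replicate 2. The epg-7 summit had 9.77 times the signal of the atg-13 summit in the optimal list, 7.60 times in replicate 1 and 10.8 times in replicate 2. The optimal and pooled lists are made from both replicates together, so only the replicate lists are separate measurements. With 2 replicates on different scales no SD can be given, and the order of atg-13 and the exonic epg-9 summit differed between them.

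**Figure D2:**
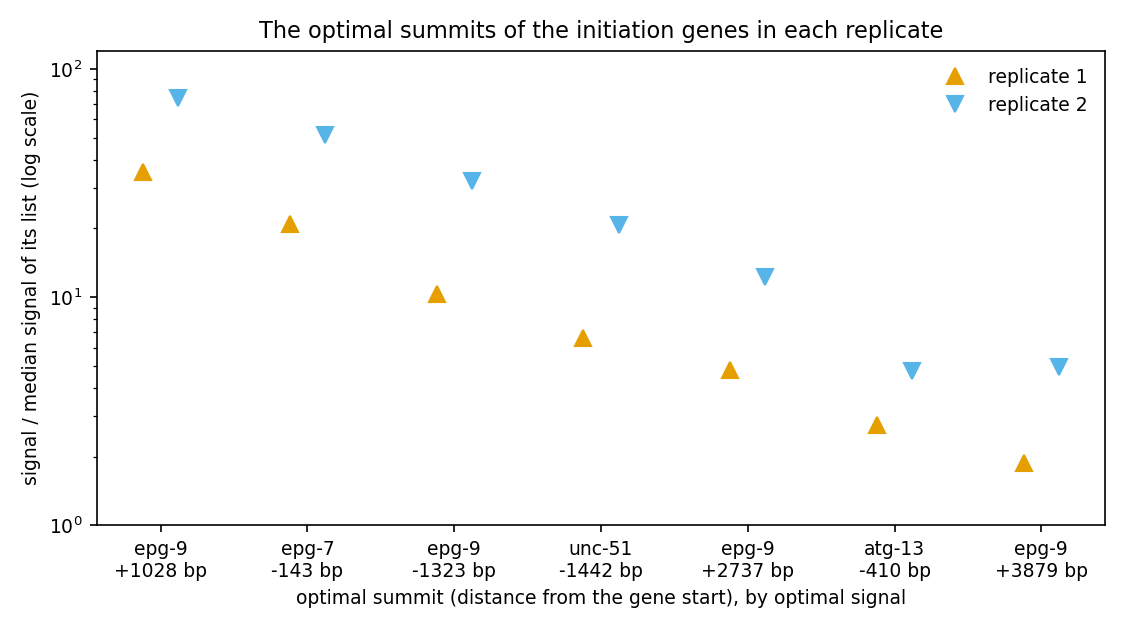
Signal of the 7 optimal summits in each replicate, as a multiple of the median signal of that replicate's list on a log axis, ordered from left to right by optimal signal. The multiples run from 35.2 to 1.88 in replicate 1 and from 74.5 to 4.74 in replicate 2, and the order changes only for the last pair. The lists differ in length (11695 and 30000) and lowest signal (8.94 and 4.54), so the multiples are not comparable between replicates.

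Outside these 7, few summits were found in both replicates. The 4 windows held 12 summits of replicate 1 and 21 of replicate 2, of which 8 were matched within 100 bp. The 8 were the optimal summits and that 1617 bp into epg-9. The 4 unmatched summits of replicate 1 were at rank 3614 or beyond, and the 13 of replicate 2 at rank 14973 or beyond. Over the whole lists, 47.5% of replicate 1 summits and 18.5% of replicate 2 summits were matched, shares that also depend on the unequal lengths of 11695 and 30000.

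The E-box core CACGTG, which reads the same on both strands, lay within 50 bp of 3 of the 7 summits, those of epg-7, atg-13 and the exon of epg-9. Of all 1959 optimal summits 21.8% held it, and of windows of the same length centred 500 bp to either side of all optimal summits 2.19% did. At epg-7 the core began 1 bp after the summit. At atg-13 it began 17 bp before the summit, and at the exonic epg-9 summit 29 bp after it. In replicates 1 and 2 that exonic summit lay 46 and 41 bp from the optimal one, and the core began 17 and 12 bp before it. At epg-7 and atg-13 it was part of the longer palindrome TCACGTGA, which 6.02% of all optimal summits and 0.179% of the flanking windows held. These genes were at ranks 11 and 1036, so the same 8 bases stood under peaks of very different signal.

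The strongest peak had its E-box off centre. A TCACGTGA lay within the rank 1 peak of epg-9, with its first base 72 bp before the summit, outside the 50 bp searched. Nearer the summit the intron held the word CTGCGTCTC in 2 copies, beginning 21 bp before and 8 bp after it. This word, chosen after the data were seen, is the reverse complement of ACGCAG overlapping CGTCTC. It lay within 50 bp of 3 of the 4 epg-9 summits, namely the rank 1 summit, that 1323 bp upstream and that 2737 bp into the gene, and of none at the other genes. Of all optimal summits 12.5% held it, against 0.613% of flanking windows. CGTCTC and ACGCAG are both parts of this word, so their presence at the same 3 summits is fixed and not a further observation. Neither was at any other of the 7 summits, and they were at 22.7% and 20.5% of all optimal summits. The fourth epg-9 summit, in the exon, had the E-box and not CTGCGTCTC.

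The unc-51 summit held neither an E-box core nor CTGCGTCTC within 100 bp. It had GAGAGA beginning 4, 15 and 17 bp after it, the last pair overlapping. GAGAGA, searched on both strands, was within 50 bp of 3 of the 7 summits, namely this and the strongest and the upstream epg-9 summits, and of 30% of all optimal summits. At the upstream epg-9 summit the GAGAGA match shares bases with the CTGCGTCTC match, so these are not separate stretches. CATGTG was at 0 of the 7 summits, against 17.1% of all optimal summits, and CACACA at 1, that of epg-7, against 17.9%. A word near a summit is a description of the sequence and not evidence that a protein binds it.

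**Figure D3:**
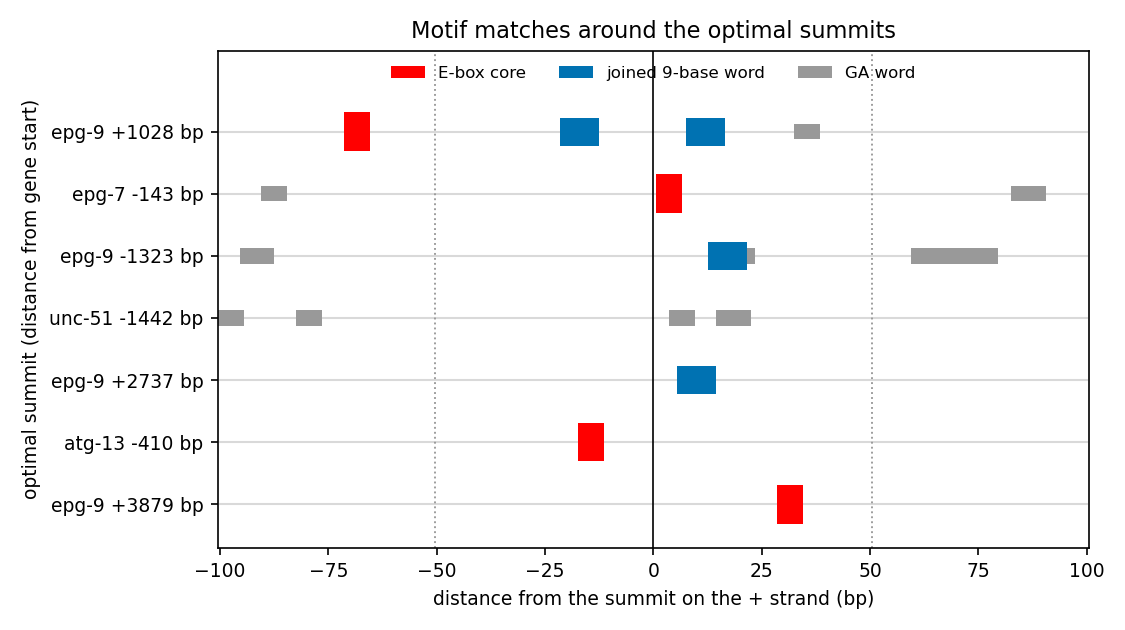
Matches to the E-box core (red), the joined 9-base word CTGCGTCTC (blue) and GAGAGA (grey) on either strand, by distance in bp on the + strand from each of the 7 optimal summits, with dotted lines 50 bp on either side. The red mark nearest to a summit is that of epg-7, and blue marks stand at 3 of the 4 epg-9 summits only.

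Most E-boxes of these genes had no strong peak. The 4 windows held 12 CACGTG cores, of which 4 began within 100 bp of an optimal summit. Over the nuclear genome, 3.22% of 17729 cores did. In the longer lists the counts were nearer to the genome, with 4 of 12 against 24.2% in the pooled list, 4 of 12 against 10.1% in replicate 1 and 5 of 12 against 35% in replicate 2. The 4 were that of epg-7, the upstream one of atg-13, the intronic TCACGTGA of epg-9 and 1 in the coding exon of epg-9. All 3 cores in TCACGTGA were among these 4, but no share over the genome is given for that longer word. The 3 cores in the unc-51 window were all in coding exons, at least 5216 bp from the optimal summit. Of these, 1 was 19 bp from a summit of replicate 2 that had a signal of 5.95 and rank 22967. Another core in the same epg-9 exon began 112 bp from the summit there. The windows were chosen for genes known to have peaks, so the share of 4 in 12 is not independent of that choice.

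Within 50 bp of each summit the GC content was 46.5% to 55.4%, against a median of 48.5% over all optimal summits. Repeat-masked bases in the RefSeq sequence made up 38.6% of these bases at the strongest epg-9 summit, 19.8% to 26.7% at the other 3 epg-9 summits, 11.9% at unc-51 and 0% at epg-7 and atg-13, with a median of 4.95% over all optimal summits. At least 1 masked base was present at 52.8% of all optimal summits. The part of masked sequence in these signals was not tested.

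Beside the initiation genes, 17 of 28 other autophagy genes of a fixed list had an optimal summit in the same kind of window, against the 15% of all genes above. That 15% is not matched for window length, and the share was 27.9% for windows over 15000 bp. The 17 became 12 with windows from 1000 bp before to 200 bp after any annotated start. It became 13 by nearest start only and 23 with 10000 bp upstream. No share of all genes is given for these settings. For genes of the lipid kinase and membrane supply the count was 6 of 8. The strongest were at the phosphoinositide-binding genes epg-6 and atg-18, with signals of 386 and 264, the membrane protein gene atg-9 with 324 and the lipid transfer gene atg-2 with 103. For conjugation genes the count was 6 of 11, led by the Atg8 homologues lgg-2 and lgg-1 with signals of 847 and 675, then by atg-7 and atg-3, the E1-like and E2-like enzymes, with 339 and 211. For metazoan late-acting and cargo genes the count was 3 of 6, with 431 at the cargo receptor gene sqst-1, 200 at epg-4 and 63.4 at epg-5. Of the upstream kinases 2 of 3 had one, with 162 at aak-2, an AMPK catalytic subunit, and 83.7 at let-363, the TOR kinase.

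The strongest signal per gene had a median of 469 over the 4 initiation genes and of 200 over the 17 others with a summit. The initiation genes ran from 70.2 to 1042 and the others from 59.1 to 847, so the ranges overlapped. The nearest annotated start to the strongest summit was that of the gene itself at 4 of 4 initiation genes and at 12 of the 17 others. No share over all genes is given for this. The count depends on the window, as with 10000 bp upstream the strongest atg-13 summit was nearest to prp-8. Among the other autophagy genes named above, the strongest summit was nearest to another gene's start at sqst-1 (mrpl-51), atg-7 (klc-1), atg-3 (Y55F3AM.9) and let-363 (vep-1). That of let-363 lay 16009 bp into the gene. CACGTG was within 50 bp of the strongest summit at 2 of 4 initiation genes, epg-7 and atg-13. It was there at 4 of the 17 others, against 21.8% of all optimal summits. These differences were not tested, because the genes were chosen with earlier results known.

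**Figure D4:**
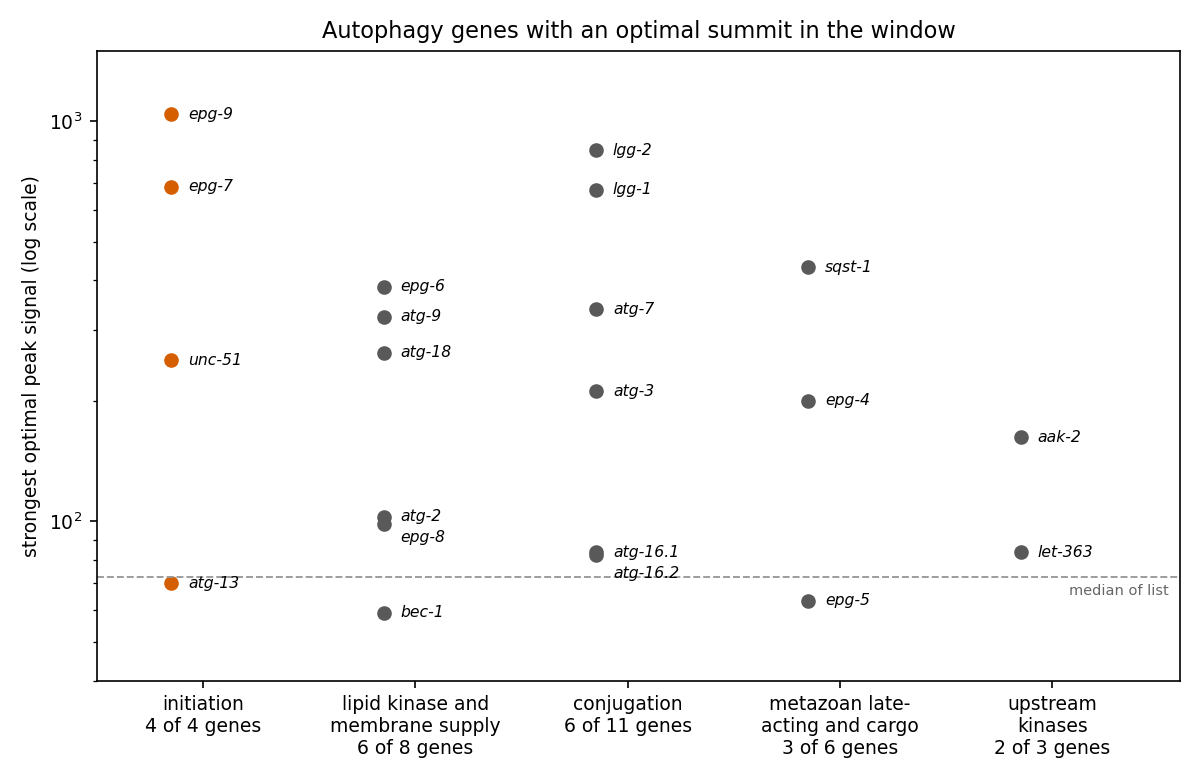
Strongest optimal signal per gene on a log axis, by step of autophagy, for genes with an optimal summit in the window, with the number of genes that had one under each step and a dashed line at the median of the optimal list. The ranges of the initiation genes (orange) and the other steps (grey) overlap, and atg-13 lies just under the line.

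Genes with the most similar pattern were found from the strongest signal in the window over the list median, on the log2 scale, in the 2 replicates. For unc-51, at 2.73 in replicate 1 and 4.37 in replicate 2, the nearest genes were pqn-70 and bgal-1, at a Euclidean distance of 0.07. For atg-13 they were pqn-20 and C37A2.6, at 0.05, and for epg-7 sgn-1 and F07H5.13, at 0.06. For epg-9 they were lgg-2 and dnc-1, a dynactin gene, at the larger distance of 0.43. Both genes of each pair lie on the same chromosome and had identical values in both replicates, as windows that share a peak would give. Each pair is therefore to be read as a single similar pattern and not as 2. The distance rests on 2 values a gene.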

How the data were processed

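HLH-30 binding was measured by ChIP-seq in 2 biological replicates of 1 group. Per the deposited file descriptions, the authors called peaks in each replicate against a control, pooled the alignments of both for another list, and made an optimal list by IDR. The pooled list is labelled as peaks and background for input to IDR, so its weaker entries need not be bound sites. The replicate lists also reach low values, with a −log10 q-value of 0.0333 at rank 29761 of replicate 2. Multiples of a list median are therefore not enrichment over typical bound sites. No source used here gives the aligner, peak caller, cut-offs or read totals, so depth is unknown. Each peak has the authors' signal value, whose scale differs between lists, and the authors' −log10 q-value, which 1571 of 1959 optimal peaks share at its upper limit of 3.50, so peaks were ranked by signal. The ce10 copies were not used.

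Summits (column 2 plus column 10 of each row, printed counting from 1) were placed on Ensembl release 115 gene models and the RefSeq sequence of WBcel235, the assembly of ce11, with Python 3.11.15, pandas 2.3.3 and numpy 2.4.6. A gene window ran from 5000 bp upstream of the outermost start to the gene end. Summits were matched within 100 bp, and words were searched on both strands with the whole word within 50 bp of a summit. Distances to a word are from the summit to its first base on the + strand. No statistical test was made. The counting was tested on simulated data.

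The genes, gene lists and words were chosen with earlier results of these data known. The genes named are the 4 initiation genes, up to 4 other autophagy genes a step by strongest signal, and the 2 genes nearest to each initiation gene in pattern, leaving out genes whose window shares a summit with it. Alternatives were other windows, lists, replicates left out, word distances and matching distances.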

Additional observations from a re-analysis of the deposited data

How the results depend on the processing

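Of 31 alternative values for the counts reported, 28 stayed within 1.5 times the reported count. This share is partly fixed by the rule. A wider window, a longer list or a larger matching distance cannot lower a count, and 3 genes in place of 4 counts as kept. With CACGTG within 25 bp of a summit, 2 summits in place of 3 lies exactly at the limit. The number of optimal summits in the 4 windows was 4 in place of 7 with windows reaching 1000 bp before and 200 bp after any annotated start, which leaves out the summits of unc-51, the strongest epg-9 summit and that upstream of epg-9, and 12 with the whole pooled list. The number of summits with CACGTG was 1 in place of 3 in the upper 979 peaks of the optimal list by signal, which holds fewer summits and leaves out atg-13 and the exonic epg-9 summit. The strongest atg-13 summit was at rank 464 in place of 1036 with 10000 bp upstream, and the strongest epg-9 summit at rank 255 in place of 1 with windows close to annotated starts. For leaving out a replicate, the 1959 strongest peaks of the other replicate's own list were taken, without new peak calling or IDR. The ranks are therefore those of the replicate lists given above. The unc-51 summit was at rank 155 in place of 112 without replicate 2 and 97 without replicate 1. Leaving out either replicate gave a summit at all 4 genes, with 7 summits without replicate 1 and 8 without replicate 2. No paired analysis was possible because there was 1 group and no test. Depth is unknown, and an absent summit may reflect it.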
